A study of Mus musculus with 6 samples.

Results

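The genes described here are 10 regulators of the balance between epithelial and mesenchymal cell character, measured in mouse embryonic stem cells (mESCs) with and without Setd2, the enzyme that trimethylates lysine 36 of histone H3. They were chosen by name, as all probe sets whose platform annotation names one of these genes and no other. They are 10 of the 18193 genes so named, and their probe sets 22 of the 45037 probe sets in the table, 13 for the mesenchymal repressors Zeb1, Zeb2, Snai1, Snai2 and Twist1 and 9 for the epithelial regulators Ovol2, Esrp1, Esrp2, Grhl2 and Rab25. Zeb1, Ovol2, Esrp1 and Rab25 had stood out in the knockout against wild type comparison of these same arrays when the genes were picked. Their differences, and those of the other members in that comparison, are therefore given as descriptions without a test.

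Total RNA was hybridised to Affymetrix arrays, with 3 arrays from Setd2 wild type and 3 from Setd2 knockout mESCs that the labels call biological repeats. All 6 samples were of the strain 129SV/C57BL/6, had no specific treatment, and were grown on feeder cells that were then depleted by settling on gelatin and 1 passage. The labels do not say which part of Setd2 was deleted, or whether the repeats of a genotype came from 1 clone or several, so the errors given measure only the spread between these samples. Values are log2 MAS5 signals, where MAS5 is the Affymetrix method of summing up the several probes for a transcript, together called a probe set, in 1 number, and a difference of 1 is a doubling of signal. Levels of different probe sets are not set against each other, because each probe set has its own brightness.

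Epithelial cells hold to their neighbours through E-cadherin and tight junctions, and mesenchymal cells do not. Zeb, Snail and Twist factors bind E-boxes in the promoters of junction genes and repress them, while Ovol and Grhl factors act in the opposite direction, in part by repressing Zeb1. Esrp1 and Esrp2 are RNA-binding proteins that switch exons to their epithelial forms, and Rab25 is a small GTPase of the Rab11 family that recycles membrane proteins in epithelial cells. Mouse embryonic stem cells express E-cadherin and are known to have an epithelial character.

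The cells carried the markers of their label. Averaged over 10 pluripotent cell markers, the level lay between 12.86 and 12.94 on all 6 arrays, and the brightest of them, Dppa5a and Tdgf1, differed between genotypes by -0.08 and -0.11. Single markers were less even than their mean: 5 had both arrays numbered 1 below all others, and 3 had both above. The single Setd2 probe set read 10.31, 10.30 and 10.31 in wild type and 9.37, 9.50 and 9.60 in knockout cells, a fall of 0.82 ± 0.12 (SE) on the log2 scale (limma adjusted p = 0.0272, and 0.000744 with the array number as a block). Its call was kept without knockout 1 and lost with any other array left out, at adjusted p from 0.0704 to 0.214, and without the intensity trend of the fit (0.0916). It checks the genotype only if it lies in the deleted part. The arrays also differed by number, with both arrays numbered 1 set apart from the other 4. Deviations from the genotype means correlated across probe sets at r = 0.50 between the arrays numbered 1. Between an array numbered 1 and those of another number in the other genotype, r ran from -0.37 to -0.30. Fibroblast genes moved with that split and are described with the Snai2 values. The genotypes differed in Y-linked transcripts as well, with mean Eif2s3y levels of 4.92 (wild type) and 11.30 (knockout), so a difference between genotypes and one between the cell lines cannot be told apart.

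Zeb1, the zinc finger repressor of E-cadherin and other epithelial genes, was lower in knockout cells. Its brightest probe set (1418926_at) read 9.29, 9.59 and 9.45 in wild type and 7.80, 7.52 and 7.69 in knockout cells. The 2 genotypes were far apart, with the lowest wild type array well above the highest knockout array. The difference was -1.78 ± 0.16 (SE), a signal 3.42-fold lower, and between arrays of the same number it was -1.50, -2.07 and -1.76. A second, dimmer probe set (1443005_at) read 5.79, 5.86 and 5.91 against 4.85, 5.09 and 5.64, also without overlap, and differed by -0.66 ± 0.33. Its knockout mean of 5.19 lay below the filter value of 5.27 that a mean over all arrays had to reach for testing. The remaining 2 probe sets, 1446127_at and 1420243_at, were too dim to be tested. They differed by -1.14 ± 0.84 and -0.97 ± 1.10, and their genotypes overlapped.

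**Figure D1:**
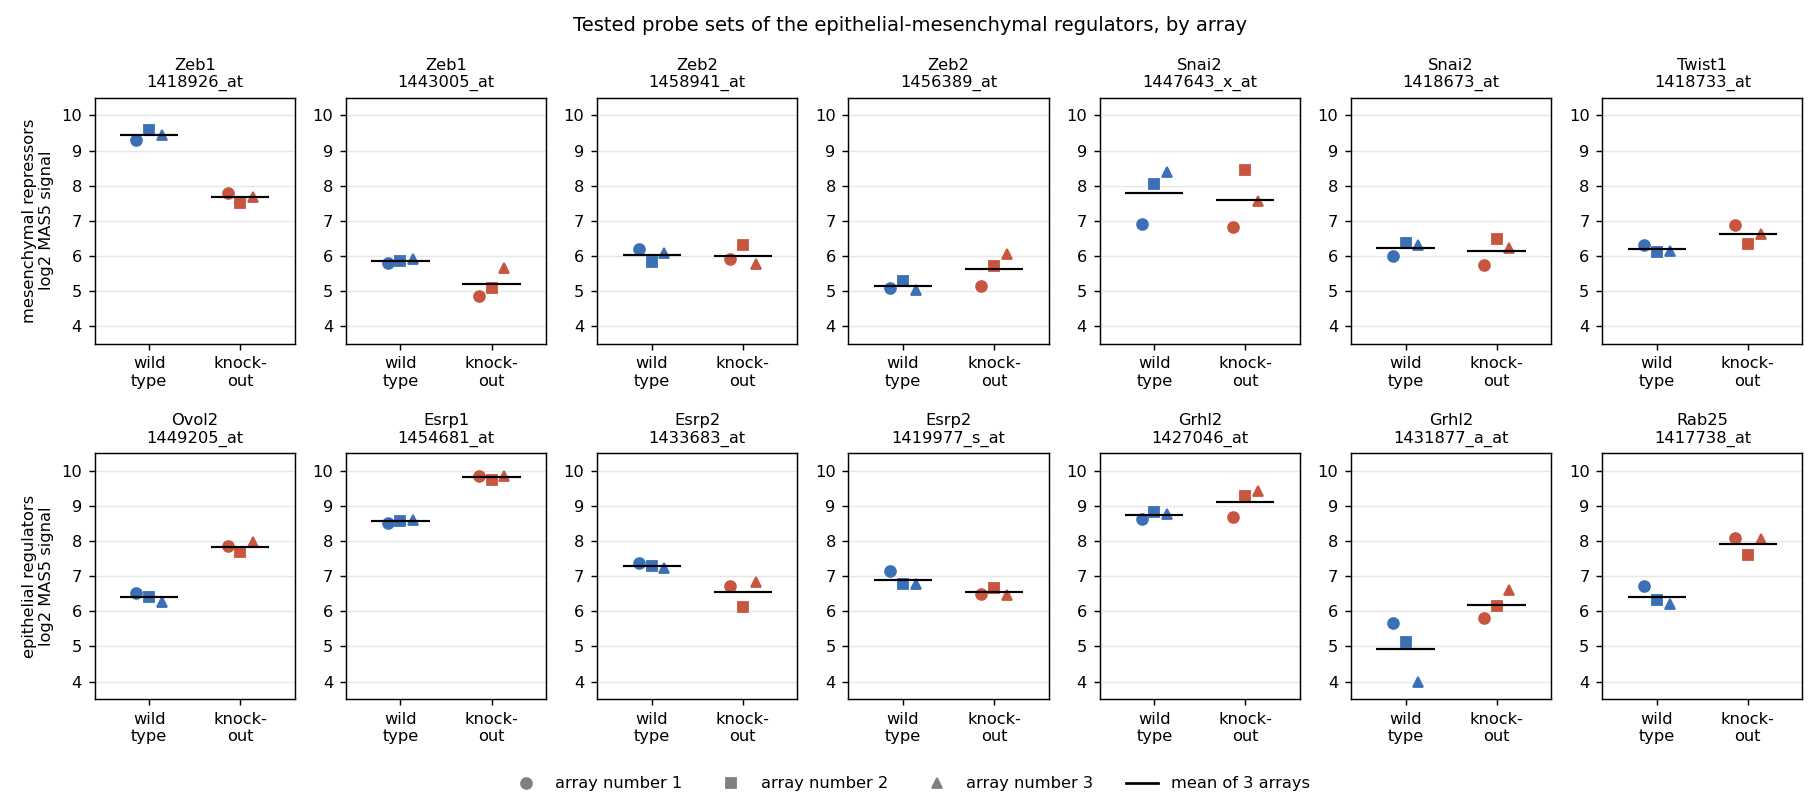
Log2 MAS5 signal of the 14 member probe sets that passed the filter, by genotype, with 1 point per array, the point shape giving the array number and the bar the mean of 3 arrays. Zeb1 (1418926_at) is lower, and Ovol2, Esrp1 and Rab25 are higher, in all 3 knockout arrays than in any wild type array.

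The closest relative of Zeb1 did not show that pattern. Zeb2, which binds the same E-boxes, had 5 probe sets, all of them dim. The brightest (1458941_at) read 6.19, 5.82 and 6.09 in wild type and 5.91, 6.32 and 5.76 in knockout cells, a difference of -0.04 ± 0.28 with overlapping genotypes. The other tested one (1456389_at) differed by 0.50 ± 0.35, and the 3 untested ones by values from -0.22 to 1.28. Of these, 1454200_at read between 0.00 and 5.01, and its knockout array numbered 2, at 5.01, stood alone. At such low signals a change of Zeb2 of either sign could be missed.

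Snai1 and Snai2, the Snail and Slug repressors, also overlapped between genotypes. The only Snai1 probe set (1448742_at) read 5.64, 4.79 and 4.35 in wild type and 5.37, 6.14 and 5.21 in knockout cells. Its mean of 5.25 fell just short of the filter, and the difference of 0.65 ± 0.49 was not tested. Snai2 read 6.92, 8.04 and 8.38 against 6.81, 8.44 and 7.56 on 1447643_x_at, whose suffix marks probes that can also bind other transcripts. Its genotypes differed by -0.18 ± 0.47, less than the spread within each of them. The other Snai2 probe set (1418673_at) read 6.00, 6.38 and 6.32 against 5.73, 6.49 and 6.23, a difference of -0.08 ± 0.29.

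What both Snai2 probe sets did follow was the array number. Wild type 1 and knockout 1 were the lowest arrays for each of them, as they were for 16.9% of all genes tested. Genes of fibroblasts, the cell type of the feeder layer, did the same: over 21 tested mesenchymal and fibroblast genes the mean level was 8.49 on wild type 1 and 8.27 on knockout 1, and between 9.03 and 9.43 on the other 4 arrays. Of these genes 13 had both arrays numbered 1 below all others, against 16.9% of all 12915 genes tested. Mmp2 and Tgfbi went the other way, the 2 with both of these arrays above all others, against 23.6% of all genes tested. The split was not confined to fibroblast genes. Both arrays numbered 1 were also lowest for 5 of the 10 pluripotent cell markers and 7 of 18 splicing regulators. Dcn, a proteoglycan of fibroblast matrix, read 5.86 and 5.65 on the arrays numbered 1 and from 7.06 to 7.87 elsewhere, and Col3a1 5.52 and 5.97 against 7.37 to 8.07. None of the 21 genes stood at 0 on any array, but all had passed the filter and no detection calls were given. Signal above 0 therefore does not show fibroblast RNA on every array. The part of feeder RNA in the Snai2 signal was not tested, and in bulk RNA fewer cells of a type and less RNA per cell cannot be told apart. Of the members, the brightest Grhl2 probe set also had its lowest values on both arrays numbered 1, and a dim one its highest. With Snai2 this made 3 of the 22 member probe sets lowest there (13.6%) and 1 highest (4.55%). Both shares are below those of all genes tested, so the split is not particular to the members. The brightest probe sets of Zeb1, Ovol2, Esrp1 and Rab25 could not show this split. Where the genotypes do not overlap, both arrays numbered 1 cannot lie beyond the other 4. Nothing is therefore read from its absence in these genes.

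**Figure D2:**
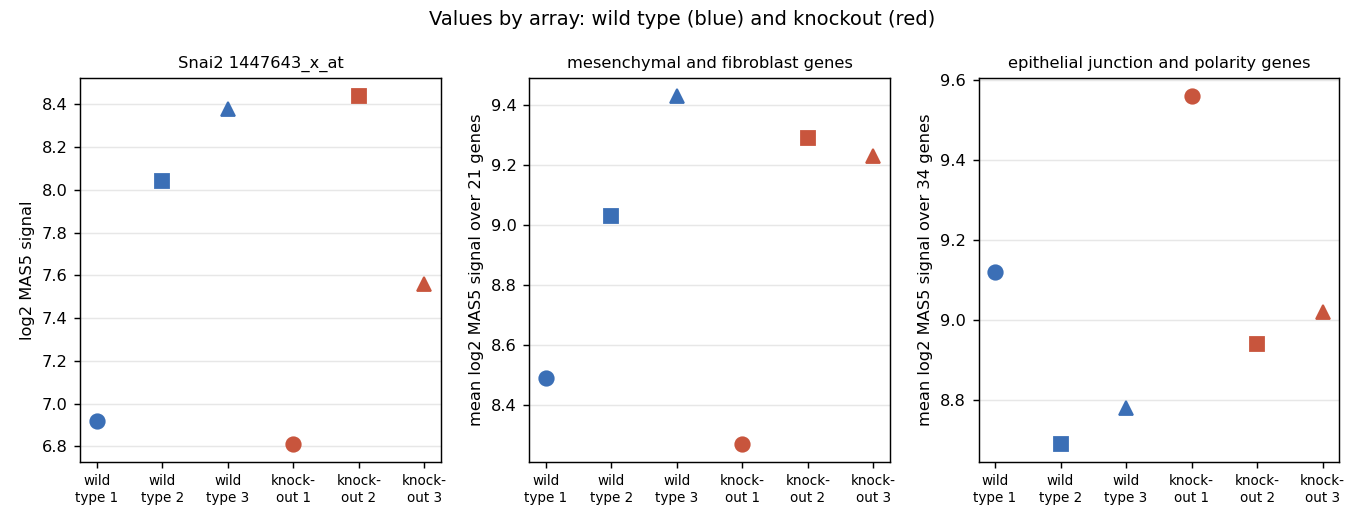
Log2 MAS5 signal of the brighter Snai2 probe set and mean log2 MAS5 signal of 2 gene lists on each array, wild type in blue and knockout in red, with the point shape giving the array number and vertical axes that differ between panels and do not start at 0. Snai2 and the fibroblast genes are lowest on both arrays numbered 1, and the junction genes are highest there.

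Twist1, a basic helix-loop-helix factor that drives mesenchymal programmes, was measured by 1 dim probe set (1418733_at). It read 6.31, 6.12 and 6.14 in wild type and 6.87, 6.33 and 6.63 in knockout cells. The genotypes did not overlap, with knockout higher, but knockout 2 lay close to wild type 1, and the difference was 0.42 ± 0.24. Among the mesenchymal repressors, then, only Zeb1 had probe sets with all knockout arrays lower, and only Twist1 had one with all of them higher.

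Ovol2, the zinc finger factor known to repress Zeb1, was higher in knockout cells. Its single probe set (1449205_at) read 6.51, 6.40 and 6.28 in wild type and 7.86, 7.70 and 7.97 in knockout cells. The genotypes were separated by more than the whole range within either one. The difference was 1.44 ± 0.19, a signal 2.72-fold higher, and it was 1.35, 1.29 and 1.69 between arrays of the same number. Rab25 (1417738_at) was 2.86-fold higher, from 6.71, 6.32 and 6.21 to 8.09, 7.62 and 8.07, a difference of 1.52 ± 0.23. No array of one genotype reached the values of the other, although within each genotype the arrays of Rab25 were more spread than those of Ovol2.

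The start regions of these 2 genes differ in the letters that Zeb and Snail factors are known to bind. They are shown as the 250 bases before the start site (RefSeq, build GRCm38.p6), Rab25 from chr3:88548280-88548529 and Ovol2 from chr2:144331363-144331612, both on the minus strand. Capitals mark CACCTG or its reverse complement CAGGTG.
Rab25: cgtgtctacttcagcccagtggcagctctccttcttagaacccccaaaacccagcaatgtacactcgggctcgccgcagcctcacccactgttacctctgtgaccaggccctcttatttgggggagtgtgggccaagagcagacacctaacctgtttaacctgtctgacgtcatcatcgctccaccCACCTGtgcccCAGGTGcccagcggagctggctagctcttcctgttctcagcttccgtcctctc
Ovol2: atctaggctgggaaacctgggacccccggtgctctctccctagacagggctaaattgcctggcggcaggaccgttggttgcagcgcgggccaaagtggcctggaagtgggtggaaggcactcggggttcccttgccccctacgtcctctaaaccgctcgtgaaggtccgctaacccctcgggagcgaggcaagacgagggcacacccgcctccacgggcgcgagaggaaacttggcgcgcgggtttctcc
Rab25 holds 2 such boxes, on opposite strands, the first bases of which lie 64 and 53 bases before the start site. Ovol2 holds none here. One box or more stands in 20.2% of the 32851 start regions of 300 bases in the same collection (250 before and 50 after the start site), and 2 or more in 2.88%. Among the other members with such an entry, Snai1 holds 1 box, and Zeb2 and Twist1 none. Esrp1, Esrp2, Grhl2 and Snai2 have no entry here. A match is a description of the sequence and says nothing of binding in these cells.

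Esrp1 and Esrp2, which have overlapping exon targets in mouse, went opposite ways. Esrp1 (1454681_at) read 8.52, 8.58 and 8.60 in wild type and 9.86, 9.74 and 9.87 in knockout cells. Arrays of 1 genotype were close together and far from those of the other, and the difference of 1.26 ± 0.13 is a 2.39-fold higher signal. Esrp2 (1433683_at) read 7.37, 7.29 and 7.23 in wild type and 6.73, 6.12 and 6.84 in knockout cells, a difference of -0.73 ± 0.24. Its second probe set (1419977_s_at) read 7.14, 6.77 and 6.78 against 6.50, 6.67 and 6.46, a difference of -0.35 ± 0.21. On both probe sets the knockout arrays were the 3 lowest. Esrp2 lies on chromosome 8, where the 709 tested genes had a median difference of -0.34 and 86.3% of them differed by less than 0, against 50.1% of all genes tested. How far this shift enters the Esrp2 values was not tested, and the size on the second probe set was near it.

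Grhl2, a Grainyhead factor that activates E-cadherin and claudin genes, gave mixed values over 4 probe sets. The brightest (1427046_at) read 8.64, 8.84 and 8.78 in wild type and 8.68, 9.28 and 9.43 in knockout cells. The genotypes overlapped through knockout 1, and the difference was 0.38 ± 0.21. On 1431877_a_at the values were 5.67, 5.14 and 3.99 against 5.81, 6.15 and 6.61, without overlap, and differed by 1.26 ± 0.47. That probe set passed the filter through its knockout arrays, since its wild type mean was 4.93. The other 2 were too dim to be tested, and differed by 0.57 ± 0.69 and -0.71 ± 0.83 with overlap.

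Set side by side, the mesenchymal repressors and the epithelial regulators were not moved as 2 blocks. Over all 9 probe sets of the epithelial regulators the median difference was 0.57, with 6 above 0 and 3 below. Over the 13 of the repressors it was -0.08, with 5 above 0 and 8 below, and 4 of those 8 were Zeb1. The median over all probe sets tested was 0.01. In all, 9 of the 22 probe sets had genotypes that did not overlap, against 15.4% of the whole table. The fit over all tested probe sets called 4 of the 22, Zeb1 as lower and Ovol2, Esrp1 and Rab25 as higher, beside 0.648% of all 27022 tested by limma (0.274% higher and 0.374% lower). Since this comparison chose the members, nothing is read from those counts. Leaving out wild type 2 or knockout 2 ended the calls of Ovol2 and Rab25, and leaving out wild type 3 or knockout 3 ended those of Ovol2, Esrp1 and Rab25.

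**Figure D3:**
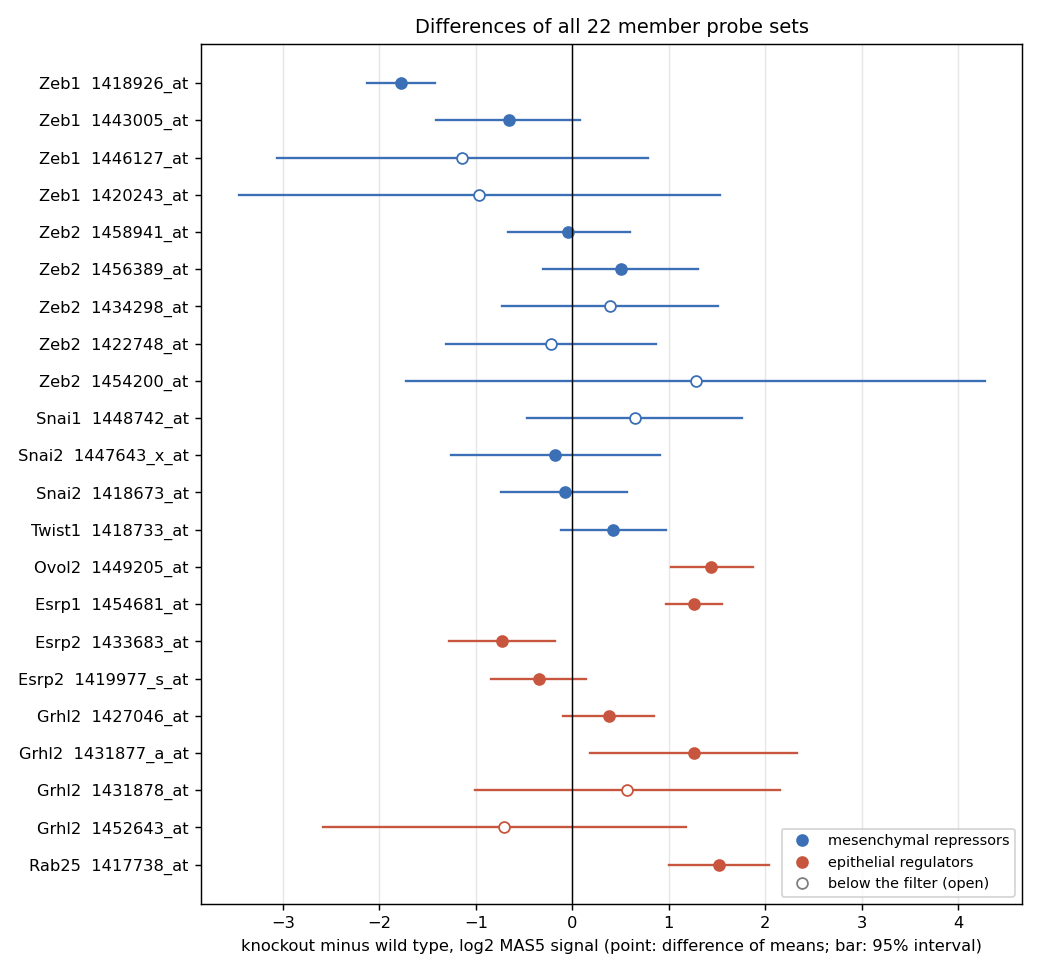
Knockout minus wild type difference in log2 MAS5 signal for all 22 member probe sets, ordered by gene and role, with bars giving the 95% interval of the fit and open points marking the 8 probe sets below the filter. Zeb1 lies lowest among the repressors and Rab25, Ovol2 and Esrp1 lie between 1.26 and 1.52, while both Esrp2 probe sets lie below 0.

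The junction and polarity genes, on which these regulators act, were mostly higher in knockout cells by a modest amount. Of 34 tested genes, 26 differed by more than 0, and the list median was 0.35, against 0.00 for all genes tested. Their mean level was 9.12, 8.69 and 8.78 on the wild type arrays and 9.56, 8.94 and 9.02 on the knockout arrays. Knockout was higher within each number, while both arrays numbered 1 stood above the other 4, and the same held gene by gene for 12 of the 34 genes against 23.6% of all genes tested. None passed the threshold in either direction in the fit without a replicate block (limma, 11 at an unadjusted p under 0.05, all higher), where 0.736% of all genes did. In that fit 3153 of all 27022 tested probe sets had an unadjusted p under 0.05 in either direction. This is the background for such counts in the other lists as well. With the array number as a block 10 rose and none fell (limma, 19 higher and 2 lower at an unadjusted p under 0.05), against 4.13% of all genes called higher and 5.75% called lower in that fit. For the fit with the block the background of unadjusted counts is not given here, so those counts are not read. Without both arrays numbered 1, 8 of the genes passed, all higher, against 3.76% of all genes called higher in that fit. Mal2 passed the filter through its knockout arrays only, and the 33 genes at or above the filter value in both genotypes gave 9 and 7, a count added after the data were seen. The list was put together from genes known to be bound or repressed by Zeb1 and its relatives and from other epithelial genes, with earlier results of these data known.

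Cldn6, a claudin of embryonic tight junctions, stood out among them. It read 9.76, 8.62 and 8.77 in wild type and 11.40, 10.23 and 10.10 in knockout cells. Arrays numbered 1 were the highest of each genotype, and within each number the knockout array was higher, by 1.64, 1.61 and 1.33. The mean difference was 1.53 ± 0.39 (SE), 2.88-fold, with a limma adjusted p of 0.165 without the block and 1.93e-05 with it. Epcam, an adhesion molecule of epithelia and of embryonic stem cells, read 12.60, 12.70 and 12.76 against 13.06, 13.14 and 13.26. Its difference was 0.47 ± 0.08, and no knockout array was as low as any wild type array (limma adjusted p = 0.0564, and 0.00108 with the block). A dimmer Epcam probe set differed by 0.45 ± 0.20 and did not pass with the block (limma adjusted p = 0.133).

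Crb3, an apical polarity protein, read 8.52, 7.63 and 7.71 in wild type and 9.31, 8.74 and 8.42 in knockout cells. The genotypes overlapped through wild type 1, while the differences within a number were 0.79, 1.11 and 0.71. Its limma adjusted p was 0.299 without the block and 0.00372 with it, and 2 further probe sets differed by 1.05 ± 0.22 and 1.11 ± 0.46. Mal2, a protein of apical transport, was 2.50-fold higher (5.34, 5.07 and 5.13 against 6.43, 6.38 and 6.70), with a limma adjusted p of 0.0840 without the block and 0.0279 with it. Its wild type mean of 5.18 lay below the filter value, so it had to differ to be tested at all, and its p is not read as support. The others called with the block, named like Cldn6, Crb3 and Mal2 after their values were seen, were the protease gene St14, the protease inhibitor gene Spint2, the adaptor subunit gene Ap1m2, the junctional adhesion molecule gene F11r and the keratin genes Krt18 and Krt19. Their differences ran from 0.40 for Spint2 to 0.97 for Krt19. Krt18 and Krt19 had overlapping genotypes and were not called without both arrays numbered 1. A second Spint2 probe set differed by 0.58, and a second, dim one of F11r by 0.17.

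Cdh1, the E-cadherin gene and the classical target of Zeb1 and Snail, did not follow. It read 13.42, 13.23 and 13.33 in wild type and 13.45, 13.44 and 13.36 in knockout cells, with overlapping genotypes and the brightest signal of the list. The difference was 0.09 with a 95% interval of -0.08 to 0.26 (limma adjusted p = 0.723, and 0.441 with the block), so a rise of the size seen for Epcam lies outside the interval. Cdh1 is on chromosome 8, and the general shift of that chromosome described for Esrp2 applies to it as well. Cdh3 and Marveld3, which lie there too, differed by -0.57 and 0.38.

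The start regions of the junction genes are rich in the box that Rab25 carries. Of the 23 genes of the list with an entry, 19 had CACCTG on either strand in at least 1 start region of 300 bases, against 22.6% of all 27025 genes with an entry. Several of the listed genes are known as Zeb1 or Snail targets because of such boxes, so the share describes how the list was made. Of the 10 genes called with the block, 7 have an entry, and the 4 of these with 2 or more boxes in the 250 bases before the start site are shown, with the boxes in capitals (RefSeq, GRCm38.p6). Ap1m2 is taken from chr9:21312334-21312583 and Spint2 from chr7:29281978-29282227, both minus strand, and Crb3 from chr17:57061951-57062200 and Epcam from chr17:87635729-87635978, both plus strand.
Ap1m2: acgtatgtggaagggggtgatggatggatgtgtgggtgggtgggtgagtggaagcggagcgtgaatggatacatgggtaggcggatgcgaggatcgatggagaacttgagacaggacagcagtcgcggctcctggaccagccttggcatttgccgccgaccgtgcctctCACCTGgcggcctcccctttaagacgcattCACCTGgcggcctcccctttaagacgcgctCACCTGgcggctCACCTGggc
Crb3: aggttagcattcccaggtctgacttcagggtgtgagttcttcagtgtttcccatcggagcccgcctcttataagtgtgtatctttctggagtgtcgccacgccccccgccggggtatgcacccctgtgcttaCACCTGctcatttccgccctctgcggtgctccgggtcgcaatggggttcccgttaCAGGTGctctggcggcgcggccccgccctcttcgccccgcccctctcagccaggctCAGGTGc
Epcam: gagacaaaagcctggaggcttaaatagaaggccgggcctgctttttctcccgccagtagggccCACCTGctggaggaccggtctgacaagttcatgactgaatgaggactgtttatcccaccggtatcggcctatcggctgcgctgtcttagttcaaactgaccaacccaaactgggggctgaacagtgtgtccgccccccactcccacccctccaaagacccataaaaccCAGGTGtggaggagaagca
Spint2: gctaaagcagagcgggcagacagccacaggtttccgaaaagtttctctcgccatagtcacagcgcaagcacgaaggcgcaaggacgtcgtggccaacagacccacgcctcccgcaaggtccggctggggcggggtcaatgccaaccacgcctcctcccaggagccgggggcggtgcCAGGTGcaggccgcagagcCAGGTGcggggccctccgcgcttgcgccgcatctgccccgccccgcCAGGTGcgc
Ap1m2 holds 4 boxes here, all in 1 orientation and within 81 bases of the start site. Crb3 holds 3 here and 1 just after the start site. Spint2 holds 3, and Epcam 2 that lie far apart, at 187 and 19 bases before the start site. Cldn6, F11r and Krt18, the other 3 with an entry, hold 1 each in this stretch. Genes of the list that were not called with the block can be as rich. In a start region of 300 bases Lsr holds 4 boxes, and Cldn4, Pard6b and Cdcp1 2 each. Genes with several start regions vary between them. Patj holds 3 boxes in 1 region and none in the others, Cldn7 2 or none, and Ocln 2 or 1. Spint1, Cgn, Tjp1 and Jup, also not called, hold none. Whether boxes go with the call was not tested.

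Of the 21 tested mesenchymal and fibroblast genes, 6 differed by more than 0 and 15 by less, against 50.1% of all genes below 0. None passed without the block (limma, 2 higher and 2 lower at an unadjusted p under 0.05), and with it 2 rose and 2 fell. Fn1, fibronectin, rose by 0.43 ± 0.10 and Pdgfrb, a growth factor receptor, by 0.81 ± 0.20. The matrix protein gene Sparc fell by 0.49 and Lgals1, a galectin, by 0.34 on the log2 scale (limma adjusted p with the block from 0.00158 to 0.0430 over these 4 genes, of which Pdgfrb and Sparc were named after their values were seen). The 4 genes did not pass without the block, at limma adjusted p from 0.128 to 0.320. On other probe sets Fn1 differed by 0.38, Lgals1 by -0.30, Pdgfrb (too dim to be tested) by 0.02 and Sparc by -0.56 and 0.63, the last on a dim probe set with all knockout arrays higher. The list median was -0.15. Vim, the intermediate filament gene of mesenchymal cells, read 11.97, 12.85 and 13.00 against 11.73, 13.05 and 12.82, and Cdh2, N-cadherin, 8.01, 8.88 and 9.08 against 7.84, 8.88 and 8.57. Both followed the array number, not the genotype.

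**Figure D4:**
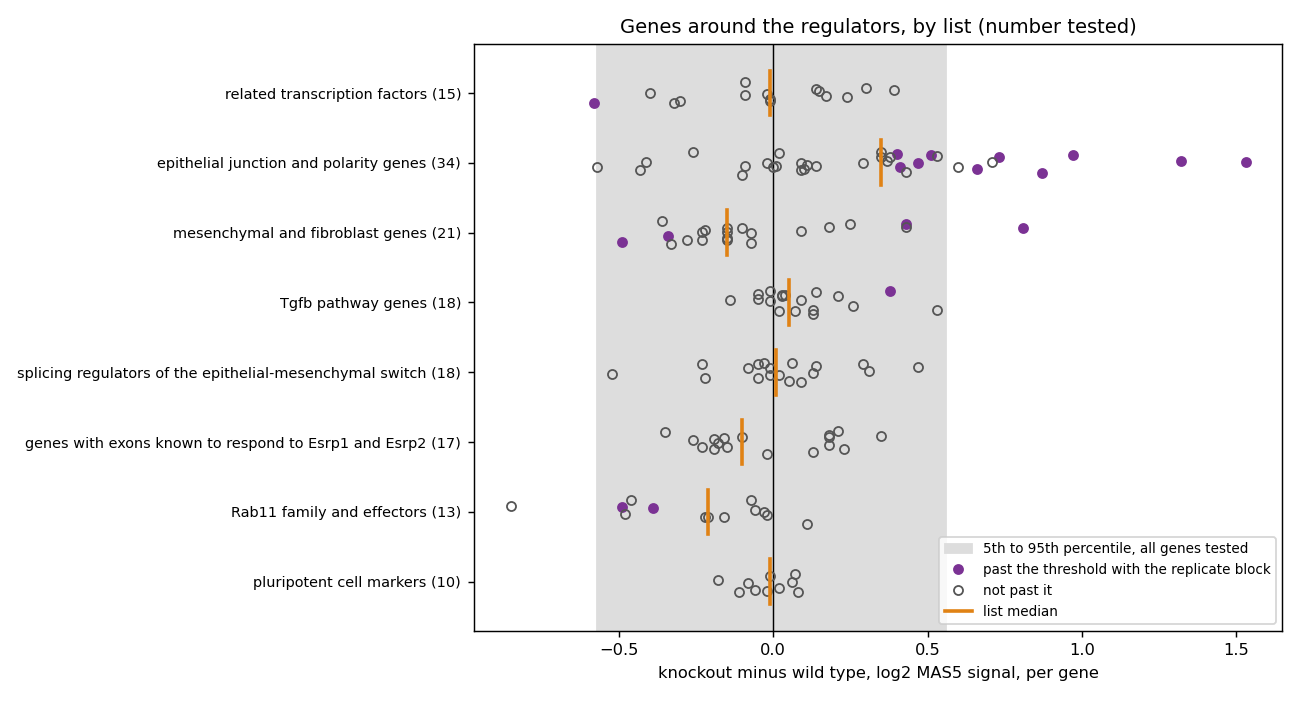
Knockout minus wild type difference in log2 MAS5 signal per gene for 8 gene lists, with the number of genes tested, the list median as an orange bar, and the range from the 5th to the 95th percentile of all genes tested (-0.57 to 0.56) in grey. Filled points passed limma's threshold with the array number as a block, 10 of them among the junction genes, all to the right of 0.

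Other transcription factors and partners of the same circuit gave differences in both directions, 6 above 0 and 9 below. Of 15 tested, including Grhl1, Grhl3, Snai3, Twist2 and the corepressors Ctbp1 and Ctbp2, none passed without the block (limma, 1 at an unadjusted p under 0.05), and the list median was -0.01, with Grhl1 at 0.39, Snai3 at -0.32 and Prrx1 at -0.40. The brightest, Ctbp2, a corepressor that Zeb1 recruits, and Tead1 differed by -0.01 (95% interval -0.15 to 0.13) and 0.24 (-0.07 to 0.55). With the block Tcf12, an E-protein partner of Twist1, fell by 0.58 (limma adjusted p = 0.280 without the block and 0.00397 with it), and it was named after its values were seen. Of its other 3 tested probe sets, which differed by values from -0.71 to -0.08, none passed with the block (limma adjusted p from 0.0956 to 0.928).

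Genes of the Tgfb pathway, the best known inducer of Zeb and Snail factors, gave 0 of 18 past the threshold without the block (limma, 1 at an unadjusted p under 0.05). Their median was 0.05. With the block Smad4, the shared signal mediator, rose by 0.38 ± 0.10 (limma adjusted p = 0.171 without the block and 0.00921 with it), also named after its values were seen. Its other probe sets differed by 0.22 and 0.28 and did not pass with the block (limma adjusted p = 0.188 and 0.0555). The brightest, the repressors Skil and Tgif1, differed by 0.04 and 0.13.

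Splicing regulators that act beside or against the Esrp proteins also gave differences in both directions, 9 above 0 and 9 below. Of 18 tested, including Rbfox2, Mbnl1, Qk and Ptbp1, none passed in the fit without the block (limma, 2 at an unadjusted p under 0.05) or with it (3), with a median of 0.01. The brightest, Srsf1 and Celf1, differed by 0.13 and 0.05. Further from 0 lay Mbnl3 at -0.52 (95% interval -0.96 to -0.08) and Celf2 at 0.47 (0.05 to 0.89), with limma adjusted p of 0.337 and 0.365 without the block and 0.0773 and 0.0607 with it. Of 17 tested genes with exons that respond to Esrp1 and Esrp2, none passed in either fit (limma, 0 at an unadjusted p under 0.05 without the block and 3 with it). The brightest, Enah and Rac1, differed by -0.02 and -0.10. These probe sets give the level of a transcript and not the choice of its exons. Cd44, one of these genes, followed the array number, at 9.04 and 8.49 on the arrays numbered 1 and from 10.60 to 11.17 on the others.

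The relatives and effectors of Rab25 gave differences from -0.85 for Rab11fip3 to 0.11 for Rab10, and 4 of the 13 tested lay within 0.1 of 0. In all 12 of the 13 differed by less than 0, against 50.1% of all genes tested, with a median of -0.21. None passed without the block (limma, 3 at an unadjusted p under 0.05, all lower), and with it Rab8a fell by 0.49 and the motor protein gene Myo5a by 0.39 (limma adjusted p = 0.00650 and 0.0303 with the block, 0.125 and 0.243 without it). Myo5a was named after its values were seen. Rab8a, a GTPase of apical transport, lies on the shifted chromosome 8, as does Rab11fip1, which differed by -0.48. The other Myo5a probe sets differed by -0.20 and 0.05. Rab11a, the brightest of the list, read 12.22, 11.87 and 11.85 against 12.34, 11.76 and 11.77, a difference of -0.02. On other probe sets Rab8a differed by 0.12 and, too dim to be tested, by -0.30.

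Patterns most like those of the members were sought among 6369 probe sets naming 1 gene and spanning at least 1 on the log2 scale over the 6 arrays. For Zeb1 the 3 most alike were Fundc2, Vamp3 and Ighmbp2 (Pearson r = 0.994 each) and the most opposite were the Y-linked Uba1y (-0.998), Cthrc1 and Rrbp1 (-0.996 each). Ovol2 was most like M6pr (0.996), Zfp874a (0.995) and Eif2s3x (0.994), and most opposite to Sult6b1 (-0.998), Epor (-0.996) and Pclaf (-0.991). The genes most like Esrp1 were Eif2s3y (0.998), Zfp874a and M6pr (0.997 each), and those most opposite were Pclaf, Ccny and Erdr1 (-0.995 each). Rab25 was most like Eif2s3x (0.995), Hemk1 and Zfp429 (0.989 each), and most opposite to Usp14 (-0.994), Epor (-0.993) and Slc7a6 (-0.991). With 3 arrays per genotype, any gene with a clear step between the genotypes reaches such values, and the 6 arrays share that step.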

How the data were processed

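Gene expression was measured on 6 arrays, 3 per genotype, with genotype and number taken from the titles. The authors deposited log2 MAS5 signals, per the submitters' processing notes for MAS5 and from the values for the scale (the trimmed mean after raising 2 to each value was between 497.0 and 497.3 on all arrays); version, genome build and detection calls were not given in the sources used here. They were used without further normalization. Gene names came from the platform annotation and were updated through RefSeq (GRCm38.p6) for 34741 of the 34945 naming 1 gene. Probe sets with a mean below the 40th percentile (5.27) were left out, leaving 27022. Knockout minus wild type was fitted with limma 3.58.1 in R 4.3.3 (lmFit, eBayes with an intensity trend, two-sided, Benjamini-Hochberg, threshold 0.05). For lists, each gene was taken at its brightest tested probe set. SE and intervals (95%) are those of this fit; untested probe sets take theirs from the fit without the filter. The number of arrays limits the precision.

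Replicate numbers 1 to 3 occur in both genotypes. Deviations from the genotype means correlated between same-numbered arrays at r = 0.50, 0.23 and 0.24 across probe sets, all above 0.1, so the numbers were treated as pairs. Wild type 2 with knockout 3 (0.23) and wild type 3 with knockout 2 (0.17) also passed 0.1. The correlations thus set number 1 apart but do not tell numbers 2 and 3 apart. Deviations cancel out over the 3 arrays of a genotype. The tie between the arrays numbered 1 therefore makes those among numbers 2 and 3 positive on average. Their values are no separate support for the pairs. The pairing, and every result with the block, comes from the data and not from the labels. The block value stands beside results whose call it changes.

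The members and lists were chosen with earlier results of these data known. Named genes were all member probe sets, genes called in a list (up to 6), the 2 brightest of each list, and the 3 most and least like Zeb1, Ovol2, Esrp1 and Rab25. Genes called only with the block, other than those among the 2 brightest, fall outside this rule, as do Cdh3, Marveld3, Mbnl3, Celf2, Grhl1, Snai3, Prrx1, Rab11fip1, Rab11fip3, Rab10, Dcn, Col3a1, Mmp2, Tgfbi, Vim, Cdh2 and Cd44. So do the junction genes named for their box counts. They were named after their values were seen. Start regions were searched for CACCTG and CAGGTG. Alternatives tried were the block, no filter or a stricter one, no trend, quantile or median scaling, each array left out, and both arrays numbered 1 left out. Member differences were also taken from the arrays numbered 1 alone.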

Additional observations from a re-analysis of the deposited data

How the results depend on the processing

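The count of all probe sets called was 175. It was 2129 with the replicate block, 2033 without both arrays numbered 1, 57 without the intensity trend, and 31 to 431 leaving out single arrays. Members called higher stayed at 3 under the filters, scalings and block, and were 2 without the trend and 0 to 3 leaving out single arrays (without both arrays numbered 1 the count was 4, with the brightest Grhl2 probe set added); 1 member was called lower in each fit run. The choice of members rests on this comparison, so these counts are no support. Junction genes called went from 0 to 10 with the block, 8 without both arrays numbered 1, and 1 without the trend (Mal2), under quantile normalization (Epcam), and without knockout replicate 1 (Epcam); counting the genes at or above the filter value in both genotypes, added after the data were seen, it was 9 with the block and 7 without both arrays numbered 1. With the block, and without both arrays numbered 1, the counts were 1 and 2 for related transcription factors, 4 and 2 for mesenchymal genes, 1 and 1 for the Tgfb pathway, and 2 and 2 for the Rab11 family, from 0 each. Genes with Esrp exons went from 0 to 1 without both arrays numbered 1. Splicing regulators stayed at 0 in every fit run. Of 196 member differences recomputed, 185 moved by less than 1 SD. That count is no support, since the block, the filters and the trend leave a difference unchanged by construction. Nor can leaving out 1 of 3 arrays move a difference by 1 SD. The 11 that moved more all came from the arrays numbered 1 taken alone. No difference of a called probe set changed sign. The dim Zeb2 and Snai1 signals limit what could be seen there.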
